A study of Saccharomyces cerevisiae with 25 samples.

Results

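The genes of the cytosolic translation elongation factors of yeast and of eIF5A were followed through ER stress in ribosome profiling and RNA-seq. The members were taken by ORF identifier: TEF1 (YPR080W), TEF2 (YBR118W), EFT1 (YOR133W), EFT2 (YDR385W), YEF3 (YLR249W), HEF3 (YNL014W), HYP2 (YEL034W), ANB1 (YJR047C), TEF4 (YKL081W) and CAM1 (YPL048W), which are 10 of the 6696 ORFs counted. All 10 passed the filter on low counts in both fits. No sequence was analysed here.

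During elongation, eEF1A brings each aminoacyl-tRNA to the ribosome as a complex with GTP, eEF2 moves the ribosome along the mRNA by a codon, and the fungal factor eEF3 helps to release the tRNA that leaves the ribosome. The eEF1B complex recharges eEF1A with GTP, and eIF5A, named as an initiation factor but active in elongation, relieves stalls at difficult stretches such as runs of proline. In yeast eEF1A, eEF2, eEF3, eIF5A and the gamma subunit of eEF1B are each encoded by a pair of paralogous genes, and the mRNAs of the major copies are known to be among the most abundant ones in growing cells.

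W303-1a cells (MATa, with the markers ade2, his3, leu2, trp1, ura3 and can1), the wild-type strain, were sampled untreated (0 h) and after 1, 2 and 4 h with tunicamycin (Tm) at 1 µg/mL, which blocks N-glycosylation of proteins in the ER. The strains eS7A-WT and eS7A-4KR share the markers of W303-1a and lack both chromosomal genes of the ribosomal protein eS7 (RPS7a::HisMX6, RPS7b::natNT2), so the only eS7 comes from a plasmid, pRS315-RPS7a-3HA or pRS315-RPS7a-4KR-3HA. In the 4KR form the lysines that the ubiquitin ligase Not4 modifies are arginines. They were sampled at 0 and 4 h. There were 25 libraries, 13 of ribosome footprints and 12 of RNA-seq. Replicates are described in the methods as independent biological ones. Each group had 2 libraries, except that treated W303 had 1 library per assay and time and untreated eS7A-WT had 1 in RNA-seq. Footprint libraries held 3423907 to 33858553 counts and RNA-seq libraries 28309641 to 49246452, and the smallest was the W303 footprint library at 4 h. The replicate pairs had Spearman correlations of 0.994 to 0.999.

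The members lie on 9 chromosomes (assembly R64, the sacCer3 build named in the labels). TEF1 is at XVI:700594-701970 and TEF2 at II:477671-479047, and both span 1377 bases. EFT1 is at XV:575098-577626 and EFT2 at IV:1243230-1245758, each with 2529 bases. YEF3 at XII:636780-639914 and HEF3 at XIV:606319-609453 have 3135 bases each. HYP2 at V:85676-86149 and ANB1 at X:524908-525381 have 474 bases each. TEF4 at XI:282891-284455 includes an intron, and CAM1 is at XVI:464401-465648. The copies of the eEF1A, eEF2, eEF3 and eIF5A pairs thus have the same annotated length within each pair.

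Near-identical copies share reads, and how the authors assigned a read that fits both copies is not given in the sources used here. TEF1 took 49.1% to 50.4% of the RNA-seq counts of TEF1 and TEF2 and 49.6% to 50.2% of their footprints over all libraries. EFT1 took 49.5% to 50.6% of the RNA-seq counts of its pair and 49.6% to 50.2% of the footprints. The 95% Wilson intervals of these shares, which cover counting error only, were at most 0.266 percentage points wide on either side for RNA-seq and 0.839 for footprints. The copies of both pairs are therefore given as uncertain, and TEF1 with TEF2 and EFT1 with EFT2 are best read as 1 measurement each. The splits differed slightly between conditions. TEF1 held 50.4% and 50.2% of the RNA-seq counts of its pair in untreated W303 and 49.3% and 49.4% after 2 and 4 h, 50.1% in eS7A-WT before and 49.3% and 49.1% after treatment, and 50.4% and 50.4% against 49.91% and 49.96% in eS7A-4KR. EFT1 held 49.6% of the RNA-seq counts of its pair in both untreated W303 libraries and 50.4% and 50.6% after 2 and 4 h. In eS7A-WT it held 49.6% before and 50.5% and 50.5% after treatment. In eS7A-4KR it held 49.5% to 49.6% at both times.

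Levels per length were compared as counts per codon, scaled to the same sum in every library, as TPM are. In untreated W303 the mRNA level was highest for TEF1, 17699 ± 388 (SD, n = 2), and TEF2, 17487 ± 442, which did not differ beyond their spread. HYP2 followed with 5416 ± 159, then EFT2 with 3388 ± 53.6 and EFT1 with 3338 ± 50.9, which overlapped, and YEF3 with 3090 ± 299, whose SD reached both. TEF4 had 1355 ± 5.80 and CAM1 245.5 ± 6.30. At the bottom lay ANB1 with 10.2 ± 1.21 and HEF3 with 1.81 ± 0.398. The 10 genes together took 7.51% and 7.58% of all RNA-seq counts and 8.28% and 8.59% of all footprints in the untreated W303 libraries. Were a read that fits both copies of a pair counted at each, this share would be too high, which was not tested.

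**Figure D1:**
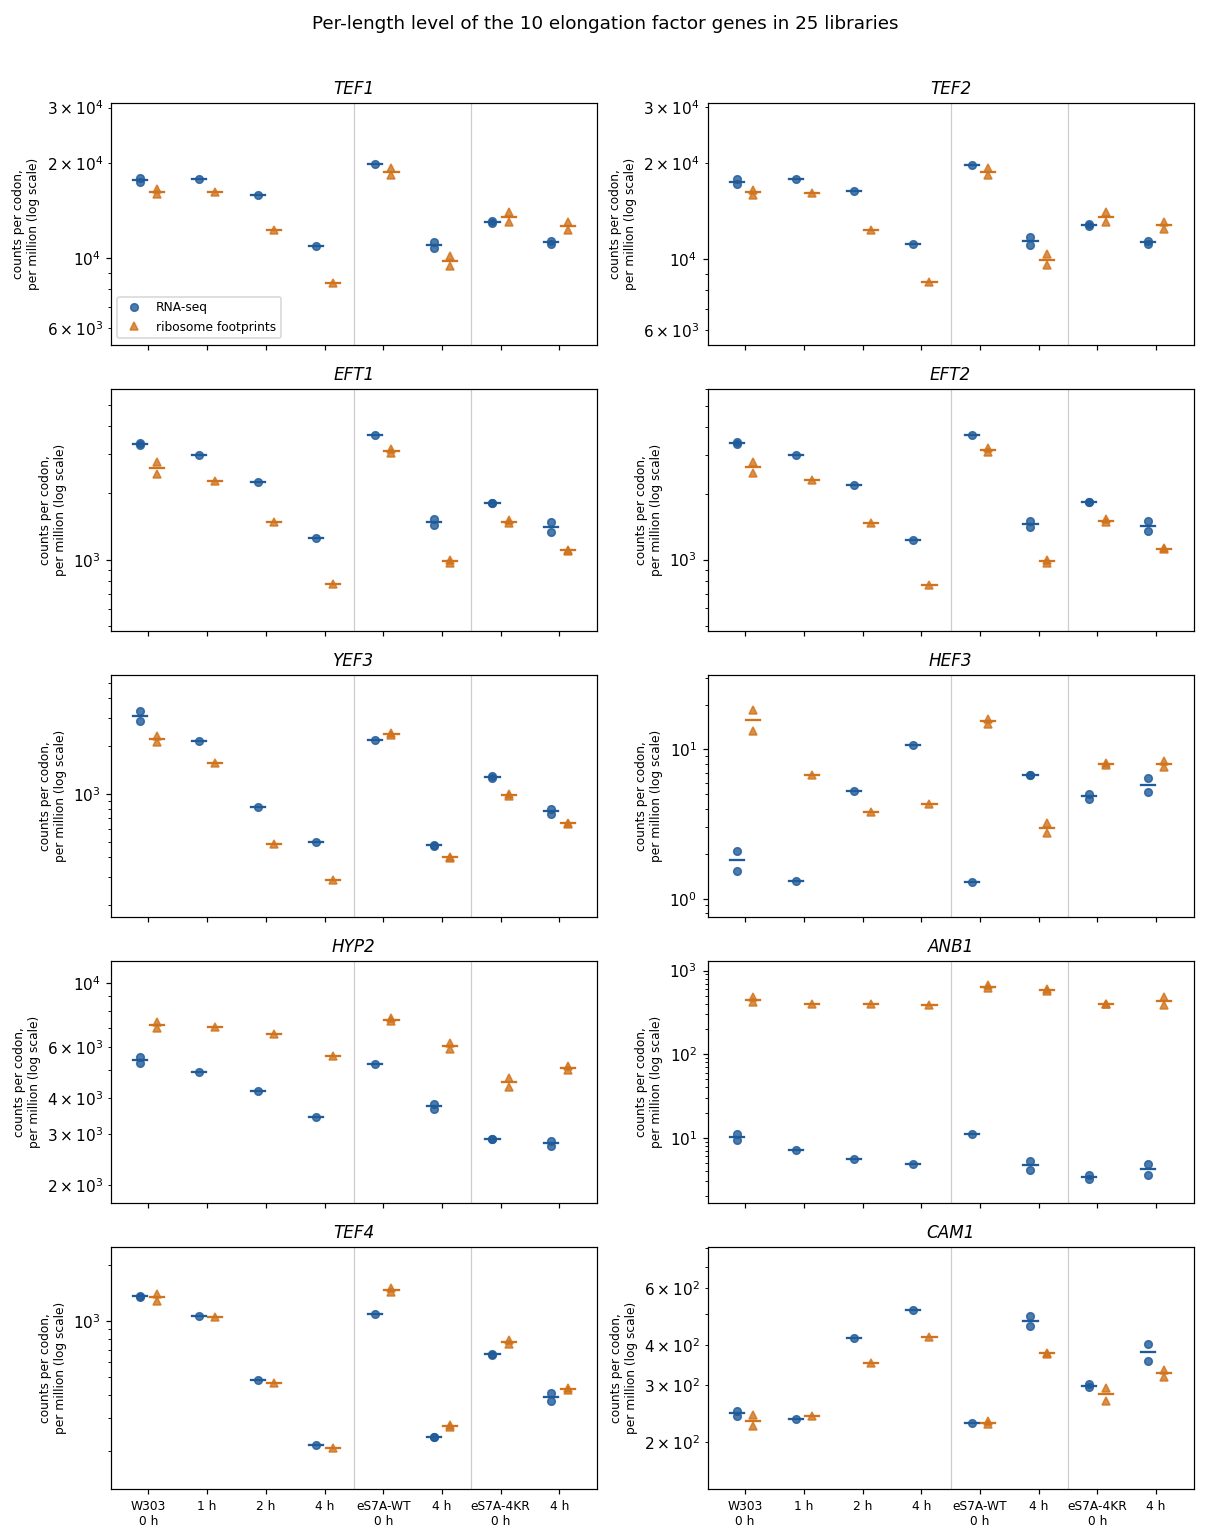
Per-length level (counts per codon, scaled to TPM, log axis) of each gene in the 25 libraries, with RNA-seq as circles, ribosome footprints as triangles and a bar at the mean of each group. In the HEF3 panel the circles and triangles change order: its RNA-seq level was 1.81 on average at 0 h in W303 and 10.7 at 4 h, while its footprint level was 15.8 and 4.29.

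The share of the 10 genes was lower at each later time in Tm. In W303 it was 6.77%, 4.85% and 3.06% of RNA-seq counts at 1, 2 and 4 h, and 7.45%, 4.64% and 3.18% of footprints. In eS7A-WT the RNA-seq share was 8.64% at 0 h and 3.14% and 3.37% at 4 h, and the footprint share 9.16% and 9.78% at 0 h and 3.63% and 3.96% at 4 h. In eS7A-4KR the shares were already low before treatment, at 3.59% and 3.66% of RNA-seq counts, and were 2.90% and 3.11% at 4 h. Its footprint share was 5.90% and 6.46% at 0 h and 4.996% and 5.23% at 4 h. The 95% Wilson intervals of these shares were at most 0.0247 percentage points wide on either side, so the spread between replicates, not counting error, sets their precision.

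To ask how each gene responded, changes were tested with edgeR's quasi-likelihood test on counts with Benjamini-Hochberg adjustment over all ORFs tested (5392 for W303, 5558 for the eS7A strains), and called at an adjusted p below 0.01. Values per library are cpm, counts relative to the library total, after TMM scaling within an assay, changes are log2 ± standard error, and a change in translation efficiency (TE) is the footprint change minus the mRNA change. Treated W303 has no replicates, so its spread was taken from the untreated duplicates. Sequencing gives shares of a library, so less of an mRNA per cell, fewer cells that hold it and more of all other RNA cannot be told apart.

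At 1 h in W303 the mRNAs of 2 members fell, YEF3 by 0.66 ± 0.14 (adjusted p = 0.0013) and TEF4 by 0.50 ± 0.13 (adjusted p = 0.0050), where 18.5% of all genes tested fell. The footprints of 4 members fell, against 16.5% of all genes: HEF3 by 1.44 ± 0.21, YEF3 by 0.75 ± 0.14, TEF4 by 0.61 ± 0.13 and ANB1 by 0.40 ± 0.11. The calls for YEF3 and TEF4 were lost without either of the W303 0 h footprint libraries, with adjusted p from 0.022 to 0.047, and that for ANB1 was lost likewise (0.062 and 0.012) and in 9 of its 12 alternatives in all, DESeq2 among them (0.22). No TE call was made by edgeR or DESeq2 among the 10 genes, 1 had an unadjusted p below 0.05, and 0.0927% of all genes were called in either direction.

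By 2 h most members had moved. At that time in W303 8 mRNAs fell and 1 rose, against 33.8% and 35.8% of all genes, and 9 footprints fell, against 30.7%. At 4 h the counts were again 8 mRNAs down and 1 up, with 36.0% and 37.6% of all genes, and 9 footprints down, with 32.6%. The median change of the 10 genes at 4 h was −1.91 for mRNA and −2.55 for footprints, beside 0.04 and 0.02 for all genes. The mRNA that rose was HEF3, and CAM1 passed in neither assay after TMM scaling. Both copies of the eEF1A and eEF2 pairs are among the mRNAs and footprints that fell, though each pair is best read as 1 measurement. With the copies of each pair summed, every pair fell in both assays at 2 and at 4 h. A single TE call was made at 2 h and at 4 h, HEF3 each time, where 0.723% and 1.37% of all genes fell in TE.

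**Figure D2:**
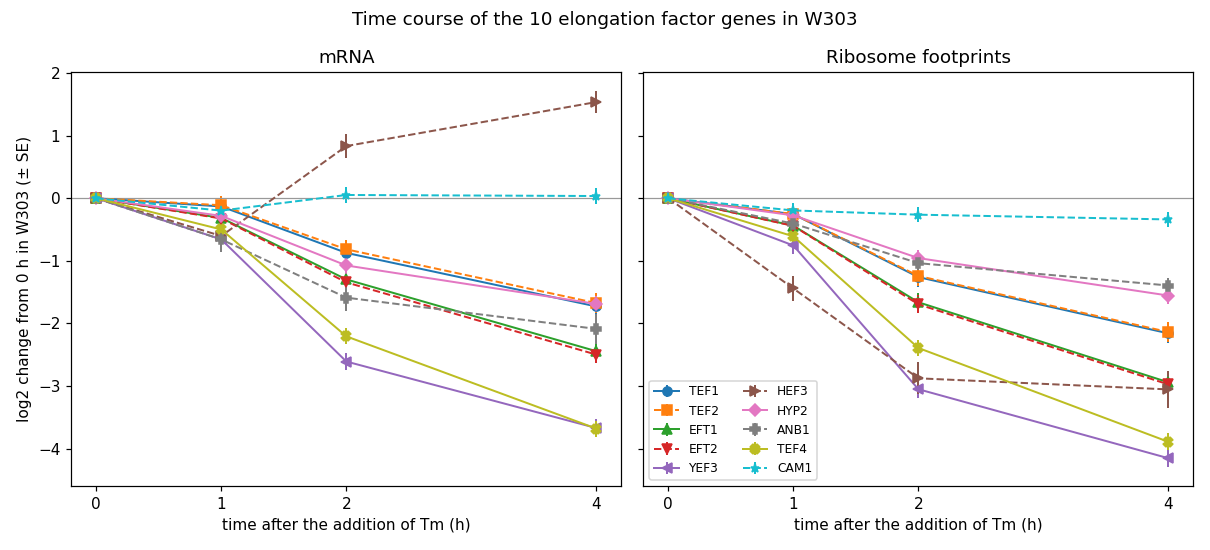
Log2 change from 0 h in W303 (± SE) against the time after the addition of Tm in hours, for mRNA and for ribosome footprints, with a line for each gene. YEF3 and TEF4 lie lowest for mRNA at 4 h (−3.67 and −3.68), CAM1 stays near 0 (0.04), and HEF3 ends at 1.54 for mRNA and −3.05 for footprints.

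TEF1 and TEF2, which encode the same eEF1A protein, fell by less than EFT1, EFT2 and YEF3 at 4 h. TEF1 mRNA had 26038 and 29222 cpm in untreated W303 and 25230, 15089 and 8336 cpm at 1, 2 and 4 h. The value at 1 h lay just below both untreated libraries and those at 2 and 4 h far below them. The change at 4 h was −1.73 ± 0.16 (adjusted p = 9e-08), a 3.31-fold fall, and that of TEF2 was −1.68 ± 0.16. Without TMM, TEF1 mRNA had 22964 cpm on average at 0 h and 11263 at 4 h. The called falls of the members at 4 h in W303 are given on the TMM scale and were smaller relative to library totals. Footprints of TEF1 went from 33948 and 33729 cpm at 0 h to 7577 at 4 h, a change of −2.16 ± 0.16, and those of TEF2 changed by −2.14 ± 0.16. The TE changes of −0.43 ± 0.22 and −0.46 ± 0.22 were not called. The calls for both mRNAs at 2 h (−0.87 and −0.82) were lost without either W303 0 h footprint library, at adjusted p of 0.016 and 0.022. With the 2 copies summed the mRNA change at 4 h was −1.70 ± 0.17.

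EFT1 and EFT2 encode the same eEF2 protein, the translocase. EFT1 mRNA had 9453 and 10066 cpm untreated and 7846, 3973 and 1794 cpm at 1, 2 and 4 h, each treated library below the untreated pair. At 4 h it had changed by −2.44 ± 0.14 and EFT2 by −2.50 ± 0.14, a 5.44-fold and a 5.65-fold fall. Footprints of EFT1 had 10459 and 9580 cpm at 0 h and 1304 at 4 h, a change of −2.94 ± 0.14, with −2.97 ± 0.14 for EFT2. The per-length mRNA level of the eEF2 pair was 0.186 to 0.197 of that of the eEF1A pair at 0 h and 0.112 at 4 h. In eS7A-WT the same ratio was 0.185 at 0 h and 0.130 to 0.131 at 4 h, and in eS7A-4KR 0.140 to 0.141 and 0.121 to 0.131.

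YEF3, the main eEF3 gene, and TEF4, a gene of the gamma subunit of eEF1B, had the largest falls in mRNA and in footprints of the 10 genes at 4 h in W303. YEF3 mRNA had 11520 and 10928 cpm untreated and 7115, 1841 and 880.7 cpm at 1, 2 and 4 h. All treated libraries were below the untreated ones, and the 4 h change of −3.67 ± 0.14 (adjusted p = 6.6e-12) was a 12.7-fold fall. YEF3 footprints went from 10939 and 10283 cpm to 596.1 at 4 h, a change of −4.15 ± 0.14. Its TE change of −0.48 ± 0.20 was not called (adjusted p = 0.15). The per-length mRNA level of YEF3 was 16.02% and 18.9% of that of TEF1 before treatment and 12.1%, 5.22% and 4.53% of it at 1, 2 and 4 h.

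TEF4 mRNA had 1807 and 1978 cpm untreated and 1340, 410.1 and 147.6 cpm at 1, 2 and 4 h, with no overlap between untreated and treated libraries. The 4 h change was −3.68 ± 0.13 (adjusted p = 2.5e-12), a 12.8-fold fall. Its paralog CAM1, which encodes another form of the gamma subunit, had 324.9 and 366.6 cpm untreated and 301.5, 358.6 and 354.4 cpm at 1, 2 and 4 h. Here the treated libraries at 2 and 4 h lay between the untreated ones, and the 4 h change was 0.04 ± 0.12 (adjusted p = 0.79). CAM1 footprints had 449.0 and 427.9 cpm at 0 h and 346.6 at 4 h, a change of −0.34 ± 0.12 that was not called (adjusted p = 0.024) but passed without either W303 0 h RNA-seq library (adjusted p = 0.00405 at the lowest). On the scale of total counts the median of all genes moved by 0.71 for mRNA at 4 h and by 0.95 for footprints. There CAM1 mRNA rose by 0.75 (adjusted p = 6.6e-08), and its footprints, not called after TMM scaling, were called as a rise of 0.62. The per-length mRNA level of CAM1, which needs no scaling between libraries when set against TEF4, was 17.8% and 18.4% of that of TEF4 before treatment and 22.3%, 86.8% and 238% of it at 1, 2 and 4 h.

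HYP2, the eIF5A gene used in the presence of oxygen, fell less than EFT1, EFT2 and YEF3 at 4 h. Its mRNA had 2597 and 2711 cpm untreated and 2183, 1261 and 823.5 cpm at 1, 2 and 4 h, each treated library below the untreated ones. The 4 h changes were −1.69 ± 0.13 for mRNA and −1.55 ± 0.13 for footprints. Without TMM, HYP2 footprints had 3877 cpm on average at 0 h and 2555 at 4 h, a smaller fall. ANB1, its copy that is known to be expressed without oxygen, had only 36 to 242 RNA-seq counts in any library but 614 to 10879 footprints. Its mRNA had 4.39 and 5.65 cpm untreated and 3.18, 1.67 and 1.18 cpm at 1, 2 and 4 h, a 4 h change of −2.09 ± 0.24. Footprints had 323.9 and 292.6 cpm at 0 h and 117.0 at 4 h, a change of −1.39 ± 0.12 that ranged from −1.48 to −0.44 over the alternative analyses. The treated libraries lay below the untreated ones for ANB1 in both assays.

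HEF3, a paralog of YEF3 with little mRNA in growing cells, was the member whose assays parted. Its mRNA had 7.30 and 5.81 cpm untreated and 4.31, 11.7 and 19.03 cpm at 1, 2 and 4 h, so the libraries at 2 and 4 h lay above the untreated pair. Its footprints had 87.2 and 64.4 cpm untreated and 27.4, 10.1 and 8.96 cpm at 1, 2 and 4 h, all treated libraries below the untreated pair. The mRNA rose by 0.83 ± 0.19 at 2 h and by 1.54 ± 0.18 at 4 h (adjusted p = 6.2e-07). The call at 2 h was lost with DESeq2 (adjusted p = 0.056). The footprint changes were −2.88 ± 0.25 and −3.05 ± 0.29, so the TE change at 4 h was −4.59 ± 0.34 (adjusted p = 1.0e-07).

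Read against its paralog, the HEF3 signal differed between the assays. Its mRNA was 0.0633% and 0.0531% of the RNA-seq counts of YEF3 and HEF3 in untreated W303 and 0.0606%, 0.631% and 2.12% at 1, 2 and 4 h, the last with a 95% Wilson interval of 1.97% to 2.27%. The share of footprints was 0.791% and 0.623%, 0.434%, 0.785% and 1.48% (1.12% to 1.96%) at the same times. Over all libraries the ratio of HEF3 to YEF3 spanned a 40.7-fold range in RNA-seq and a 3.45-fold range in footprints. As a description over libraries that share strains and times, the Pearson correlation of HEF3 with YEF3 was 0.957 over the 13 footprint libraries and −0.810 over the 12 RNA-seq libraries. With the counts of both copies summed, the 4 h TE change was −0.50 ± 0.20 (adjusted p = 0.13).

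Counts of a deleted copy were looked at in the RPS7A and RPS7B pair. RPS7B, deleted in the eS7A strains, had 0.248% to 0.435% of the counts of RPS7A in their 7 RNA-seq libraries but 6.78% to 12.6% in their 8 footprint libraries. In W303, where the gene is present, it had 17.9% to 26.8% and 33.9% to 50.5%. HEF3 footprints were 0.436% to 1.503% of those of YEF3, below that range of the deleted copy, and ANB1 footprints were 5.73% to 9.68% of those of HYP2, below or within it. The part of reads from YEF3 in the HEF3 footprints, and of reads from HYP2 in those of ANB1, was not tested.

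**Figure D3:**
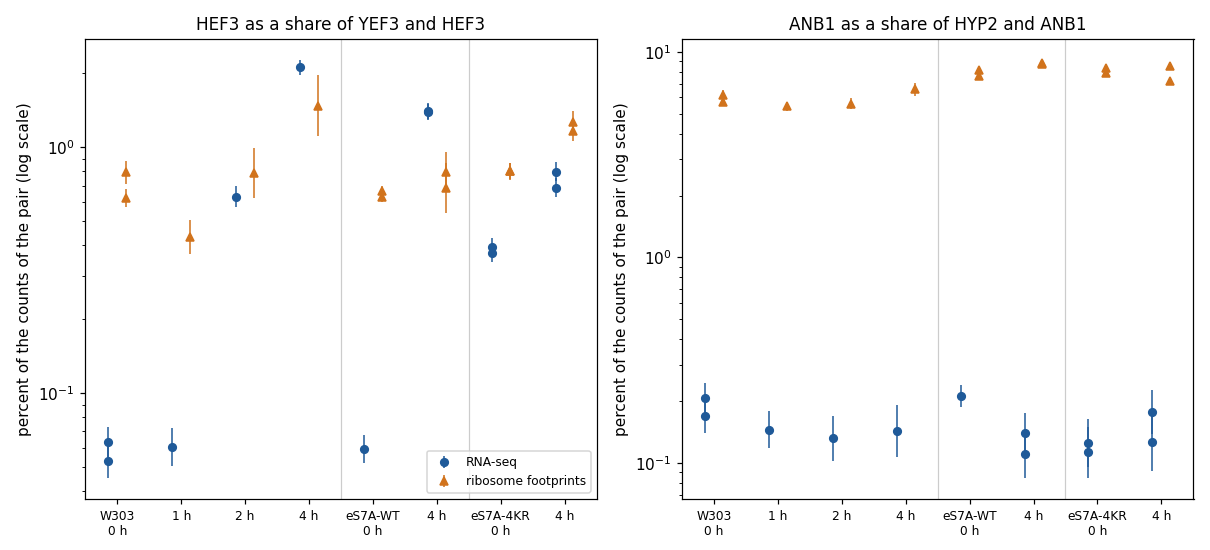
Counts of HEF3 as a percent of YEF3 and HEF3, and of ANB1 as a percent of HYP2 and ANB1, in each library (log axis), with RNA-seq as circles, footprints as triangles and 95% Wilson intervals, which cover counting error only. The HEF3 share of RNA-seq counts spans 0.0531% to 2.12%, its share of footprints 0.434% to 1.48%, and the ANB1 share is 0.111% to 0.212% in RNA-seq and 5.42% to 8.83% in footprints.

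In the eS7A strains the question was whether the ubiquitination sites of eS7A matter for the response. In eS7A-WT 8 mRNAs fell at 4 h and 1 rose, against 29.1% and 30.6% of all genes, 9 footprints fell, against 34.9%, and 1 TE fell, against 2.36%. Scaled by total counts, 2 mRNAs were called higher and 8 lower, 1 footprint higher and 8 lower, and 1 TE higher and 1 lower. The median member change was −2.06 for mRNA and −2.33 for footprints, with 0.04 for all genes in each. YEF3 mRNA had 8497 cpm in the single library at 0 h and 906.0 and 911.2 at 4 h, a change of −3.23 ± 0.33. TEF4 had 1625 cpm at 0 h and 172.0 and 175.3 at 4 h, also −3.23 ± 0.27. The 4 h libraries of both genes were far below the 0 h library and close to each other.

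The other falls in eS7A-WT mRNA were −1.88 ± 0.44 for TEF1, −1.82 ± 0.44 for TEF2, −2.33 ± 0.35 for EFT1, −2.38 ± 0.35 for EFT2, −1.51 ± 0.31 for HYP2 and −2.25 ± 0.29 for ANB1. HEF3 mRNA rose by 1.35 ± 0.23, from 5.05 cpm to 12.9 and 12.95 at 4 h, and CAM1 had 0.02 ± 0.23. Without TMM, CAM1 mRNA had 292.0 cpm at 0 h and 451.8 on average at 4 h, a rise that was called on total counts. The call for TEF2 was lost without replicate 1 of eS7A-WT RNA-seq at 4 h (adjusted p = 0.010), and that for ANB1 with the newer quasi-likelihood method of edgeR (0.051). The footprint changes, all but that of CAM1 (−0.31 ± 0.18) called, were −1.97 ± 0.36 for TEF1, −1.94 ± 0.36 for TEF2, −2.69 ± 0.28 for EFT1, −2.71 ± 0.28 for EFT2, −3.62 ± 0.27 for YEF3, −3.44 ± 0.20 for HEF3, −1.33 ± 0.25 for HYP2, −1.17 ± 0.18 for ANB1 and −3.47 ± 0.22 for TEF4. The ANB1 TE change of 1.08 ± 0.34 was not called (adjusted p = 0.047). It was 1.39 without replicate 2 at 0 h and 1.32 without replicate 1 at 4 h of the footprint libraries. With a block by replicate number it was 0.93 and passed (adjusted p = 0.0032). That block also holds the RNA-seq libraries, which did not deviate together by number.

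In eS7A-4KR the same treatment moved few of the members past the threshold, at shares near those of all genes. TEF4 was the only mRNA called, down by 0.94 ± 0.22 (adjusted p = 0.0015), where 13.5% of all genes fell. The call was lost without any 1 of the 4 eS7A-4KR RNA-seq libraries (changes of −1.01 to −0.88, adjusted p from 0.016 to 0.030), and scaling by total counts gave 1 call upward and 4 downward. YEF3 mRNA, with −0.89 ± 0.27, was not called at an adjusted p of 0.011 and passed with DESeq2 (5.1e-05) and without any 1 of the 8 eS7A footprint libraries. Footprints of 2 members fell, against 19.8% of all genes, TEF4 by 1.12 ± 0.22 and YEF3 by 0.88 ± 0.27 (adjusted p = 0.0098). The YEF3 call was lost in 9 of the 14 fits without 1 library, with the highest adjusted p, 0.10, without replicate 2 of eS7A-4KR footprints at 0 h (−0.62).

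The changes of the remaining members in eS7A-4KR were −0.54 to 0.16 for mRNA and −0.70 to −0.05 for footprints, where EFT1 and EFT2 (−0.70, adjusted p = 0.044) passed with the replicate block (−0.69, adjusted p = 0.0043 and 0.0042). HEF3 had 0.07 ± 0.17 for mRNA, CAM1 0.16 ± 0.18 and ANB1 0.15 ± 0.31. No TE was called by edgeR or DESeq2 and no member had an unadjusted p below 0.05, with 0.900% of all genes called in either direction. The median member change was −0.37 for mRNA and −0.37 for footprints, beside 0.00 and −0.03 for all genes.

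**Figure D4:**
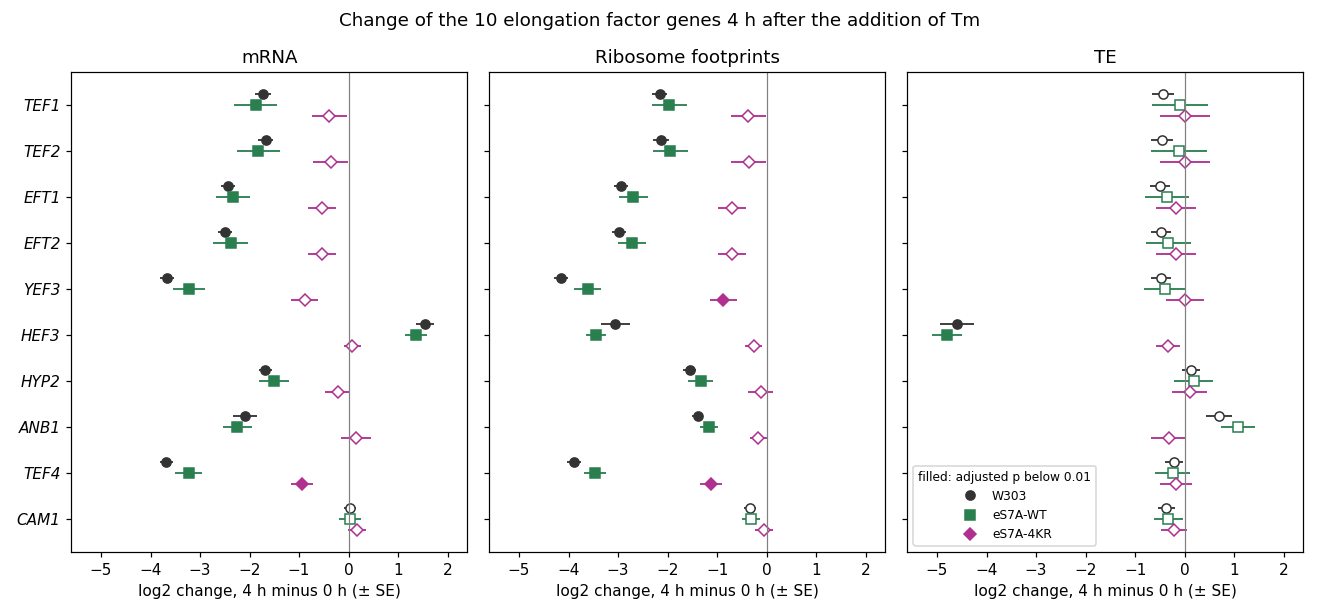
Log2 change from 0 to 4 h after the addition of Tm (± SE) for mRNA, ribosome footprints and TE in W303 (circles), eS7A-WT (squares) and eS7A-4KR (diamonds), with filled symbols at an adjusted p below 0.01. The eS7A-4KR symbols lie between −0.94 and 0.16 for mRNA, and those of W303 and eS7A-WT reach −3.68 and −3.23, with HEF3 mRNA at 1.54 and 1.35.

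Most members had lower levels in eS7A-4KR before treatment. At 0 h, eS7A-4KR had lower mRNA than eS7A-WT for 6 members and higher for 1, against 21.3% and 21.0% of all genes. TEF1 mRNA had 33139 cpm in the eS7A-WT library and 14852 and 14692 in eS7A-4KR, a difference of −1.17 ± 0.44 that was not called (adjusted p = 0.023). TEF1 and TEF2 mRNA passed with a block by replicate number (−1.01 and −1.03, adjusted p = 0.0041 and 0.0035), and DESeq2 called 9 of the 10 members. The block holds both assays, but same-numbered RNA-seq libraries did not deviate together, so it is not read as support for these mRNA differences. EFT1 had 11397 against 3816 and 3815 cpm, a difference of −1.58 ± 0.35 (adjusted p = 3.8e-04). YEF3 had 8497 against 3404 and 3314 cpm, and the difference of −1.34 ± 0.33 (adjusted p = 0.0012) was no longer called without replicate 1 or replicate 2 of eS7A-4KR RNA-seq at 0 h (adjusted p = 0.014 and 0.016). In each case both eS7A-4KR libraries were below the single eS7A-WT library.

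HYP2 mRNA was lower by 1.42 ± 0.31, with 2744 against 1027 and 1026 cpm, and TEF4 by 1.28 ± 0.27, with 1625 against 670.8 and 670.8 cpm. ANB1 was lower by 2.25 ± 0.30, from 5.82 to 1.16 and 1.29 cpm, a call lost with the newer quasi-likelihood method (adjusted p = 0.073). HEF3 was the member with more mRNA in eS7A-4KR, 13.4 and 12.3 against 5.05 cpm, higher by 1.35 ± 0.23 (adjusted p = 3.6e-05). CAM1 had 302.3 and 310.5 against 345.7 cpm, a difference of −0.17 ± 0.23. All of these mRNA values rest on 1 untreated eS7A-WT library.

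Footprints, with 2 libraries per strain, had 7 members lower in eS7A-4KR at 0 h, against 26.5% of all genes lower. YEF3 footprints had 10796 and 15173 cpm in eS7A-WT and 3080 and 4267 in eS7A-4KR, a difference of −1.82 ± 0.27 (adjusted p = 4.1e-06), and the strains did not overlap. HEF3 footprints were lower by 1.52 ± 0.16, at 68.0 and 101.5 cpm in eS7A-WT and 24.9 and 34.4 in eS7A-4KR, while its mRNA was higher. The TE difference was −2.87 ± 0.28, the 1 TE call among the members, where 1.31% of all genes were lower. Scaled by total counts, which moved the median of all genes by 0.57, TE was higher for 7 members and lower for 1. TEF1 footprints differed by −1.02 ± 0.36 (adjusted p = 0.016), which was not called with all libraries but passed without replicate 1 of eS7A-WT footprints at 0 h (−1.26, adjusted p = 0.0072), with DESeq2 (1.4e-05) and with a block by replicate number (−1.02, adjusted p = 3.1e-04), as did TEF2 with that block (3.1e-04).

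After 4 h in Tm the order of the strains was turned for YEF3 and TEF4. YEF3 mRNA had 1854 and 1776 cpm in eS7A-4KR and 906.0 and 911.2 in eS7A-WT, without overlap. It was higher in eS7A-4KR by 1.00 ± 0.27 (adjusted p = 0.0029). TEF4 had 363.5 and 335.0 against 172.0 and 175.3 cpm, higher by 1.01 ± 0.22 (adjusted p = 4.4e-04). These were the only mRNA calls among the members, 2 of 10, where 27.1% of all genes were higher in eS7A-4KR, and total counts gave 2 higher and 2 lower. The YEF3 call was lost without any 1 of the 4 RNA-seq libraries at 4 h (differences of 0.96 to 1.03, adjusted p from 0.019 to 0.037), and that for TEF4 without replicate 1 of eS7A-WT (0.99, adjusted p = 0.010).

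Footprints at 4 h were higher in eS7A-4KR for 3 members, against 28.7% of all genes: HEF3 by 1.66 ± 0.21, YEF3 by 0.92 ± 0.27 and TEF4 by 0.87 ± 0.22. Scaled by total counts, 7 footprints and 6 TE values were called higher. HEF3 footprints had 23.0 and 26.04 cpm in eS7A-4KR and 7.41 and 8.24 in eS7A-WT. With mRNA at 14.9 and 12.3 against 12.9 and 12.95 cpm, its TE was higher by 1.59 ± 0.27 (adjusted p = 2.8e-04), where 1.96% of all genes were higher. The YEF3 footprint call was lost without replicate 2 of eS7A-4KR (0.76, adjusted p = 0.048) or replicate 1 of eS7A-WT (0.79, adjusted p = 0.031), and at an adjusted p of 0.011 without any 1 of the 6 RNA-seq libraries that could be left out. The TEF4 call was lost without the same 2 footprint libraries (0.74 and 0.76, adjusted p = 0.020 and 0.012).

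**Figure D5:**
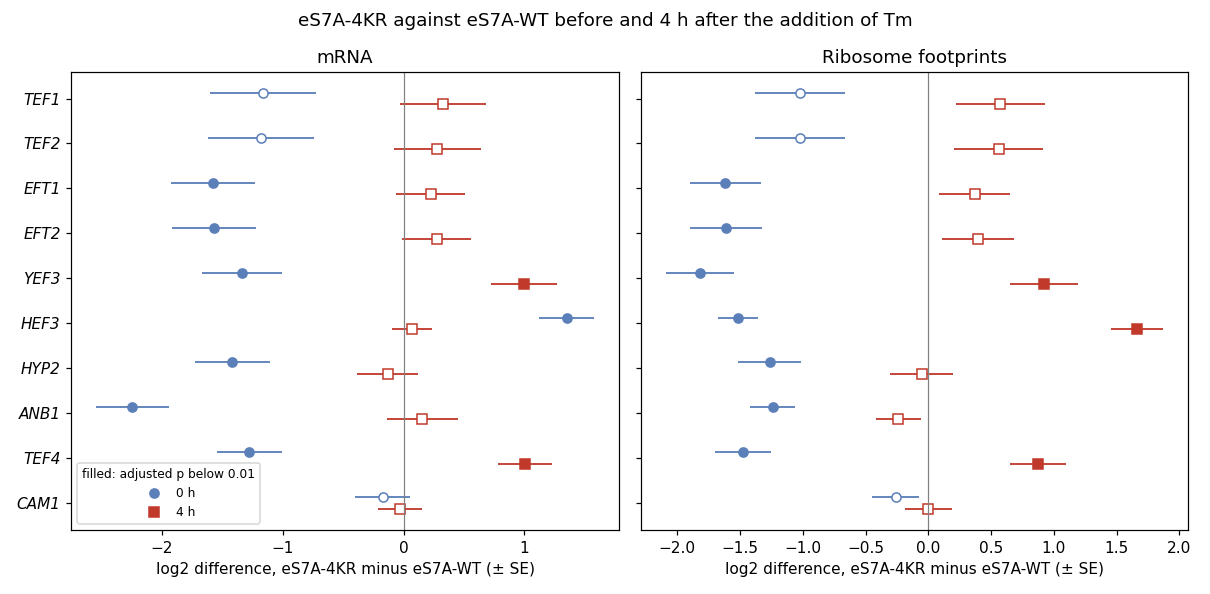
Log2 difference of eS7A-4KR minus eS7A-WT (± SE) for mRNA and ribosome footprints before treatment (circles) and 4 h after the addition of Tm (squares), with filled symbols at an adjusted p below 0.01. At 0 h every footprint difference is below 0, from −1.82 for YEF3 to −0.26 for CAM1, where CAM1 turns to 0.33 on the scale of total counts, and at 4 h YEF3, HEF3 and TEF4 are the called ones, at 0.92, 1.66 and 0.87.

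The difference between the strains in the 4 h change, eS7A-WT minus eS7A-4KR, was tested directly. For mRNA 6 members had the lower change in eS7A-WT and 1 the higher, against 19.3% and 15.5% of all genes. The values were −2.40 ± 0.42 for ANB1, −2.34 ± 0.43 for YEF3, −2.28 ± 0.35 for TEF4, −1.85 ± 0.45 for EFT2, −1.80 ± 0.45 for EFT1, −1.29 ± 0.40 for HYP2 and 1.28 ± 0.28 for HEF3. TEF1 and TEF2, at −1.49 ± 0.56 (adjusted p = 0.031) and −1.46 ± 0.56 (0.035), were not called. Both passed with the replicate block (−1.34 and −1.32, adjusted p = 0.0038 and 0.0047), and DESeq2 called 9 of the 10 members. For mRNA that block is not read as support, since same-numbered RNA-seq libraries did not deviate together. HYP2 was called at an adjusted p of 0.0095 and lost the call without any 1 of the RNA-seq libraries that could be left out (0.030 to 0.043). EFT1 and EFT2 lost it in 4 and 3 of those fits, with the highest adjusted p, 0.014 and 0.012, without replicate 1 of eS7A-WT RNA-seq at 4 h. ANB1, with 36 to 242 RNA-seq counts per library, lost it in 1 of its 22 alternatives. HYP2 and ANB1 summed were not called (−1.29 ± 0.40, adjusted p = 0.0102).

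For footprints 7 members had the lower change in eS7A-WT, against 22.9% of all genes, from −3.18 ± 0.26 for HEF3 to −1.0 ± 0.25 for ANB1, and total counts gave 1 higher and 8 lower. TEF1 at −1.59 ± 0.50 (adjusted p = 0.010) and TEF2 at −1.58 ± 0.50 (0.011) lay just outside the threshold and passed with DESeq2, with the replicate block (adjusted p = 7.5e-05 and 8.7e-05) and in 4 of the 14 fits without 1 library. ANB1 lost the call without replicate 2 of eS7A-WT footprints at 0 h (−0.69, adjusted p = 0.014), and HYP2 (−1.21 ± 0.36) lost it in 10 of the fits without 1 library. HEF3 had the 1 TE call, −4.46 ± 0.39, where 0.306% of all genes were lower. CAM1 had −0.14 ± 0.29 for mRNA and −0.26 ± 0.26 for footprints. With each pair summed, 0 TE changes were called in any comparison.

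TE levels, the per-length footprint level divided by the mRNA level, described the same split. For the 8 members other than HEF3 and ANB1 they lay between 0.578 and 1.81 over the 8 combinations of strain and time. TEF1, TEF2, EFT1, EFT2, YEF3 and TEF4 were below 1 at every time in W303. The EFT copies were below 1 in all 8 combinations, and HYP2 was above 1 throughout. HEF3 went from 8.74 at 0 h to 5.203, 0.723 and 0.402 in W303 and from 11.96 to 0.439 in eS7A-WT, but from 1.64 to 1.38 in eS7A-4KR. ANB1 had 44.1 to 124, far above the rest, with footprints at 5.42% to 8.83% of its pair.

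A replicate effect in the eS7A footprints touches these values. In all 4 eS7A footprint groups, replicate 2 had lower cpm than replicate 1 for ORFs at 1 to 16 cpm (median log2 ratio −0.68 to −0.56) and slightly higher cpm for ORFs at 1024 cpm or above (0.06 to 0.12). In W303 at 0 h the ratios were 0.04 and 0.04. After TMM scaling the abundant members were higher in replicate 2, for TEF1 at 0 h in eS7A-WT 52576 against 36409 cpm, and their standard errors are wider in the eS7A strains. With a block by replicate number, 21 footprint differences between the strains were called in place of 17, the added ones being those of TEF1 and TEF2 at 0 h and in the 4 h change, and no footprint call was lost.

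Genes related to elongation were taken as a list of 25, all tested: EFB1, which encodes the exchange subunit of eEF1B, the genes for hypusine on eIF5A (DYS1, LIA1) and for diphthamide on eEF2, the methyltransferases of eEF1A and eEF2, the mitochondrial elongation factors TUF1 and MEF1, the termination factors SUP45 and SUP35, and others such as STM1, which binds idle ribosomes, and the YEF3 relative NEW1. At 4 h in W303, 23 of the 25 mRNAs fell and 1 rose, with a median of −1.63, where 36.0% of all genes fell and their median was 0.04. STM1 fell by 4.02 ± 0.14 and NEW1 by 3.16 ± 0.12, while EFM3, a methyltransferase of eEF2, rose by 0.57 ± 0.13. In eS7A-WT 22 fell, where 29.1% of all genes fell, with a median of −1.61 and EFB1 at −2.73 ± 0.30. In eS7A-4KR 7 fell, where 13.5% of all genes fell, with a median of −0.40.

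At 0 h, 15 of the 25 mRNAs were lower in the 4KR strain, against 21.3% of all genes, among them DYS1 by 1.41 and LIA1 by 1.35, and MEF1 was higher by 1.03. At 4 h, 16 were higher, against 27.1% of all genes, MEF1 by 1.95 and STM1 by 1.47, and EFM3 was lower by 1.47. The 135 genes of cytosolic ribosomal proteins went further than the elongation factors: all 135 mRNAs fell at 4 h in W303, with a median of −4.42, and in eS7A-WT, with −3.63, and 85 in eS7A-4KR, with −0.79, where 36.0%, 29.1% and 13.5% of all genes fell. Among the 10 members, YEF3 and TEF4 came nearest to these medians in W303.

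Lists that touch HEF3 and ANB1 by their known control were counted at 4 h in W303, where 37.6% of all mRNAs rose and 36.0% fell. With the main filter both lists had shares near these. HEF3 is also known as the zinc-regulated gene ZRG7, and of 12 targets of the zinc regulator Zap1 tested, 5 mRNAs rose and 5 fell, with a median of −0.01. ZAP1 itself rose by 1.82 and DPP1 by 1.27, and ZRC1 fell by 2.50 and ZRT2 by 2.25. Of 12 hypoxic genes, the class of ANB1, 5 rose and 4 fell, with a median of 0.06. This split depended on genes with few counts. With at least 10 counts required in every library, 9 hypoxic genes were left, of which 5 rose and 1 fell, with a median of 0.39. CYC7 rose by 2.57, OPI10 by 2.20 and COX5B by 1.31, while TIR1 fell by 2.78 and AAC3 by 2.57.

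The genes whose pattern was most like that of a member were named by Pearson correlation of log2 values over the 12 RNA-seq or 13 footprint libraries among 5526 ORFs, as a description of libraries that share strains and times. YEF3 mRNA was most like GCD11 (0.997), SUI3 and MKC7, and TEF4 mRNA most like SSB2 (0.999), SSB1 and YEF3. HYP2 and ANB1 mRNA both had CAF20 first (0.994 and 0.971). HEF3 mRNA was most like PRM15 (0.976), PDC6 (0.974) and GSY2 (0.959), but its footprints were most like RPC82 (0.987), HMT1 and NSR1. ANB1 footprints were most like RFC5 (0.965), APA1 and ERG11, HYP2 footprints VMA8 (0.987), OST1 and CAF20, and TEF4 footprints ILS1 (0.999), DED81 and GSP1. CAM1 had no near match, with RBD2 at 0.860 for mRNA and CRM1 at 0.913 for footprints.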

How the data were processed

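Ribosome profiling and RNA-seq libraries were compared by strain, time and assay. Per the labels, the submitters' processing notes name CASAVA 1.8, Bowtie2 2.0.6, TopHat2 2.0.7 and the build sacCer3. The authors deposited whole-number counts per ORF without normalization, after removing duplicate footprints by random barcodes and keeping a range of footprint lengths that differed between groups. By the paper's methods, that range differed between eS7A-WT at 0 h, eS7A-WT at 4 h and eS7A-4KR. It thus varies with strain, and with time in eS7A-WT, in the footprint and TE comparisons. Its part in them was not tested. The authors also deposited, for each ORF, how many codons were counted (unit other), which served as length. The treatment of reads that map to several genes is not given in the sources used here. Names came from the R64 annotation, which matched 6008 of 6696 ORFs.

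Counts were fitted in R 4.3.3 with edgeR 4.0.16 (glmQLFit with its default, glmQLFTest), with 1 term per group, separately for the 10 W303 libraries (2 residual degrees of freedom) and the 15 eS7A libraries (7). TMM scaling was done within each assay, ORFs needed a mean of 10 counts per library in each assay, and the threshold was an adjusted p of 0.01. The procedure was tested on simulated data. DESeq2 1.42.0, other scalings, filters and thresholds, summed pairs, a replicate block and each replicate left out were the alternatives. Levels are counts per codon in TPM. Replicate numbers come from the titles where given. Whether they pair samples was checked by the correlation of same-numbered deviations from group means, which was above 0.1 for all pairs of eS7A footprint groups (0.473 to 0.637) and not for RNA-seq. All 10 members were named in every comparison, with at most 3 rises and 3 falls per list and the 3 most alike genes for 6 members. Members and lists were chosen with earlier results of these data known. Figures were drawn with matplotlib 3.10.9.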

Additional observations from a re-analysis of the deposited data

Results flagged for a closer look

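The change at 4 h in Tm differed between eS7A-WT and eS7A-4KR for 7 members in each of mRNA and footprints and for 1 in TE, by edgeR's test of the difference itself (eS7A-WT minus eS7A-4KR, log2). For the eEF2 genes the mRNA difference was −1.80 for EFT1 and −1.85 for EFT2, and the footprint difference −1.99 and −2.01. For the eEF3 genes it was −2.34 (YEF3) and 1.28 (HEF3) in mRNA and −2.74 and −3.18 in footprints, so HEF3 had opposite signs in the 2 assays and a TE difference of −4.46. For the eIF5A genes it was −1.29 (HYP2) and −2.40 (ANB1) in mRNA and −1.21 and −1.0 in footprints. For TEF4 it was −2.28 in mRNA and −2.35 in footprints. The mRNA values share 1 untreated eS7A-WT library, and each difference is the strain difference at 0 h minus that at 4 h. For HYP2 in both assays, HEF3 mRNA and ANB1 footprints the difference at 0 h was as large as or larger than the whole. It was −1.42 for HYP2 mRNA, 1.35 for HEF3 mRNA and −1.24 for ANB1 footprints. The difference at 0 h was also most of the whole for ANB1 mRNA (−2.25). The same held for EFT1 and EFT2, with −1.58 and −1.57 in mRNA and −1.62 and −1.61 in footprints. In all of these cases the strain difference at 4 h was not called. It was called at both times for YEF3 and TEF4 in both assays and for HEF3 in footprints and TE.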

How the results depend on the processing

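Of 240 member values, 102 of them called, 4380 recomputed values kept their direction and side of the threshold 4021 times, lost the call 97 times, gained it 100 times and changed sign 162 times. In 139 of these 162 an uncalled value moved across 0 by no more than 1 standard error, and the other 23 are given below. Scaling by total counts moved the median of all genes by up to 0.95 (W303 footprints at 4 h). It gave 15 TE calls in place of 3 and 26 footprint calls in place of 17 in the strain comparison, and 2 TE calls in place of 1 in the eS7A time course.

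Under total counts 32 values changed sign, 13 of them uncalled and by no more than 1 standard error. The others were these. CAM1 footprints were 0.31 at 2 h and 0.62 at 4 h in W303, 0.51 in eS7A-WT and 0.33 between the strains at 0 h, and its differences of changes 0.32 (mRNA) and 0.41 (footprints). TEF4 TE was 0.027 in W303 at 4 h, 0.37 between the strains at 0 h and 0.23 at 4 h. TE between the strains at 0 h was 0.54 for EFT1, 0.53 for EFT2, 0.49 for CAM1 and 0.091 for YEF3. mRNA between the strains at 4 h was −0.13 for TEF1, −0.17 for TEF2, −0.22 for EFT1, −0.17 for EFT2, −0.37 for HEF3 and −0.30 for ANB1. Leaving out 1 library, HYP2 and ANB1 footprints in eS7A-4KR ranged from −0.31 to 0.17 and from −0.33 to 0.071, and their difference between the strains at 4 h from −0.21 to 0.25 and from −0.39 to 0.056; they turned positive without replicate 2 of eS7A-4KR at 0 h and without replicate 2 of eS7A-WT at 4 h. The cause was not tested.

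Leaving out each replicate gave 16 to 21 mRNA, 19 to 25 footprint and 2 TE calls in the W303 time course, 9 to 11, 10 to 11 and 1 to 2 in the eS7A time course, and 11 to 17, 14 to 21 and 3 in the strain comparison. With pairs summed, 0 TE calls were left in all 3 families. Without a filter 1 TE call was left in W303, and a threshold of 0.05 gave 2 in the eS7A time course. A replicate block by number left the 22 footprint calls in W303 unchanged. It gave 21 footprint calls in the strain comparison and 2 TE calls in the eS7A time course, with 13 calls gained and 0 lost in all. Same-numbered eS7A footprint libraries deviated together (correlations of 0.473 to 0.637 over 5526 ORFs) and RNA-seq libraries did not (−0.341 to 0.031). The block is therefore given beside footprint results whose call it changes, and also beside some mRNA and TE results. It holds the RNA-seq libraries as well, so mRNA and TE calls made with it are not read as support for those changes.

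Depth limits HEF3 (47 to 1844 footprints and 118 to 728 RNA-seq counts per library) and ANB1 mRNA (36 to 242). The single libraries of W303 after treatment and of eS7A-WT RNA-seq at 0 h cannot be left out, so no spread of their own is known.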
